A study of Mus musculus with 20 samples.

Results

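The genes that encode the subunits of the oxidative phosphorylation complexes were examined in young and old mouse hepatocytes for H3K27ac, the acetylation of histone H3 at lysine 27 that marks promoters and enhancers in use. The set was taken by symbol from the protein-coding genes of the mouse RefSeq annotation on the autosomes, as the Nduf genes of complex I, Sdha to Sdhd of complex II, the Uqcr genes and Cyc1 of complex III, the numbered Cox subunit genes of complex IV and the Atp5 genes of complex V. It held 83 of 21887 genes, with 38 in complex I, 4 in complex II, 9 in complex III, 15 in complex IV and 17 in complex V. Subunits on the X chromosome, those encoded by mitochondrial DNA and Cox4i1, whose symbol the pattern does not take, are not in the set.

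Hepatocytes, the cells that do most of the liver's metabolic work, were isolated by a perfusion of 2 steps from C57BL/6N mice of 5 months (young) and C57BL/6J mice of 23 months (old), and the labels name no treatment or engineered allele in either. Chromatin was precipitated with an H3K27ac antibody after a 5% spike-in of human chromatin, and 5 libraries per age were deposited as lists of enriched regions. Age and substrain coincide and cannot be told apart. Whether the libraries of an age came from different mice is not in the labels, and the p-values therefore reflect the spread between libraries, which may be technical.

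Oxidative phosphorylation is the last stage of respiration in the inner mitochondrial membrane. Complexes I and II pass electrons from NADH and succinate to ubiquinone, complex III hands them on to cytochrome c and complex IV to oxygen, and complex V makes ATP from the proton gradient that complexes I, III and IV build. Hepatocytes are rich in mitochondria and draw on this ATP for gluconeogenesis, urea synthesis and the making of bile and plasma proteins. The nuclear genes of these subunits lie apart in the genome, and the transcription factors NRF1, GABPA, YY1 and ESRRA with the coactivator PGC-1alpha are known to act at many of them.

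A gene's value was the sum of the authors' scaled tags over the regions of a library within 1 kb of either end of the gene, where a scaled tag is a sequenced tag after the library was scaled to 10000000 tags. Libraries held 6295930 to 15544145 tags and 21213 to 30195 regions. IP efficiency, the percentage of a library's tags inside its regions, was 40.2 ± 6.62% for young and 31.9 ± 4.81% for old libraries (SD, 5 per age). The median tested gene held 248.6, 357.6, 272.8, 353.1 and 265.1 scaled tags in young libraries 1 to 5 and 243.9, 257.4, 249.0, 211.5 and 185.8 in old libraries 1 to 5. Libraries were therefore centred on that gene before testing, and the log2 differences below are old minus young relative to it. Differences in the total amount of acetylation cannot be derived from these values, and those scaled to the spike-in were not analysed here. Of 9 hepatocyte markers, 8 had a region in all 10 libraries, with a summed level of 4682 to 7083 scaled tags per young library and 2258 to 4757 per old library. All 7 Kupffer cell and macrophage markers, Adgre1 and Clec4f among them, were uncalled in every library. Among 5 cholangiocyte markers, Sox9 was called in all 10 libraries, with up to 546.4 scaled tags, and Spp1 in 4, while Krt19, Krt7 and Epcam were uncalled, and the summed level was 253.2 to 580.4 in young and 221.6 to 520.1 in old libraries. Of 6 stellate markers only Reln was called, in 9 libraries (sums of 0 to 144 in young and 44.5 to 103.1 in old), and of 5 lymphocyte markers only Cd79a, in 8 (0 to 203.5 and 52.4 to 139.6). Of 6 endothelial markers Lyve1 was called in 8 libraries and Stab2 and Clec4g in 1 each (0 to 26.3 and 0 to 57.8). The part of these cells in the members' values was not tested.

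The genes of the set were marked in hepatocytes more often than protein-coding genes at large. A region lay at an end of 59 of the 83 members in all 10 libraries (71.1%), against 7450 of 21887 genes (34%). No library had one at 8 members (9.64%), against 46.3% of all genes, and 16 members had one in 1 to 9 libraries. Frequent marking was not particular to the set. Genes of the tricarboxylic acid cycle were listed together with Pdha1 and Pdhb of pyruvate dehydrogenase. The share with a region in all 10 libraries was 93.3% for that list and 76.9% for assembly factors. It was 76.3% for cytosolic and 67.9% for mitochondrial ribosomal protein genes. For regulators of mitochondrial biogenesis it was 73.7%, and for subunits outside the symbol pattern 66.7%. All 4 members of complex II had a region in every library, as did 14 of 17 in complex V, 7 of 9 in complex III and 28 of 38 in complex I. In complex IV the number was 6 of 15, and 6 had none.

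The members of complex IV without a region were mostly isoforms known from other tissues. Cox6a2 and Cox8b, the heart and muscle isoforms of subunits VIa and VIII, had no region in any library, nor had the testis isoforms Cox6b2, Cox7b2 and Cox8c. Cox7a1, the heart and muscle isoform of subunit VIIa, had a weak one in 3 libraries, with 22.3 scaled tags in young 4, 21.9 in young 5 and 27.9 in old 1. The forms found in most tissues, Cox6a1, Cox6b1 and Cox8a, had a region in all 10, together with Cox6c, Cox7c and Cox7a2l, which encodes an assembly factor of the supercomplexes. In complex I the intronless copies Ndufb4b and Ndufb4c had none, while Ndufb4 held 319 ± 66.8 scaled tags in young libraries and 255 ± 26.7 in old ones. Absence of a call does not show absence of signal, since a region needed at least 4-fold more tags than the input.

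For subunit VIII the promoters of the called and the uncalled isoform are shown, because the pair differs in base composition as well as in the mark. Each window runs from 250 bases before to 50 after the annotated start (RefSeq, GRCm38.p6, the assembly of mm10), 5′ to 3′ on the gene's strand. Capitals mark exact matches, on either strand, to the motifs searched. For the factors known at these genes they were CCGGAAG for GABPA and other ETS factors, AAGATGGC for YY1, AAGGTCA for the nuclear receptor ESRRA, and the palindromic motif of NRF1. The general promoter elements searched were GGGCGG for SP1, the CCAAT box by the letters of its name, and TATAAA for the TATA box. No motif overlaps another in the 5 windows shown here.
Cox8a, chr19:7217567-7217866, minus strand: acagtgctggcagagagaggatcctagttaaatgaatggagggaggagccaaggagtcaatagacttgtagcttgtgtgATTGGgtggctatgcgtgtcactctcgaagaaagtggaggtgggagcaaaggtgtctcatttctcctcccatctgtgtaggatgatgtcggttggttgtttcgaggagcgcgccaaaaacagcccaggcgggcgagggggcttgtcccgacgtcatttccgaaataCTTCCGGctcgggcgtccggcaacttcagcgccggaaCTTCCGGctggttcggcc
Cox8b, chr7:140900397-140900696, minus strand: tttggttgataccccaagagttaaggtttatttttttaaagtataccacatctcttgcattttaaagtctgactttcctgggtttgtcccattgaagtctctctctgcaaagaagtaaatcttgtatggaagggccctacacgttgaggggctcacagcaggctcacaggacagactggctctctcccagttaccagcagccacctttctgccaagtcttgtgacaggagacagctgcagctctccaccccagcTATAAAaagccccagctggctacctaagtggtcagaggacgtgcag
The Cox8a window held 19 CpG dinucleotides, at an observed to expected ratio of 0.84, with 2 ETS matches near the start and a CCAAT box farther up. The Cox8b window held 2 CpG dinucleotides, at a ratio of 0.11. Its 1 match was TATAAA, which begins at base 255 of the window and so lies after the annotated start. The ratio was 0.33 for Cox7a1, and 0.43 and 0.56 for the uncalled isoforms Cox6b2 and Cox7b2. Cox6a2 and Cox8c had no window. The median ratio was 0.85 over the 54 windows of tested members and 0.78 over the 7615 windows of all tested genes. The windows of tested members ranged from 0.48 to 1.23, so that of Cox7b2 lay inside their range. Over the 21263 windows of all protein-coding genes it was 0.57.

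Cox5a, which encodes a subunit that every form of the enzyme carries, had no region at either annotated end of the gene. The gene spans chromosome 9, 57517328 to 57532427, but the start in the promoter table lies 3904 bp inside it. There a region was called in all 10 libraries, with 255.9, 443.5, 370.5, 437.1 and 355.1 scaled tags in young 1 to 5 and 265.2, 368.6, 313.8, 211.5 and 217.6 in old 1 to 5. The ages overlapped, and the log2 difference was -0.06 ± 0.12 (SE, n = 5 per age, limma adjusted p = 0.834). Its promoter is shown because it is a marked start of the set that the values at gene ends leave out.
Cox5a, chr9:57520982-57521281, plus strand: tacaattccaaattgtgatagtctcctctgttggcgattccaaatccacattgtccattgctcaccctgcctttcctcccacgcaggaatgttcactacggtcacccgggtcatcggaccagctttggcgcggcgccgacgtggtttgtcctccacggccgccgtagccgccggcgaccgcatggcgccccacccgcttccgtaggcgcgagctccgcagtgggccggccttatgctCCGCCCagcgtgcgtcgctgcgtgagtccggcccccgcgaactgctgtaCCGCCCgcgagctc
Both capital stretches are SP1 matches on the opposite strand, and the window held 35 CpG dinucleotides. Cox7a2 and Atp5d, which encodes the delta subunit of ATP synthase, also had their starts inside the gene, 4612 and 3553 bp from the nearest gene end. Unlike Cox5a, Cox7a2 had weak regions at its gene ends in 6 libraries, with 11.3 to 41.2 scaled tags. At its start Cox7a2, the form of subunit VIIa found in liver, held 250 ± 36.04 scaled tags in young libraries and 201 ± 34.8 in old ones (log2 difference 0.06, limma adjusted p = 0.829). Atp5d held 221 ± 79.5 and 200 ± 40.2 at its start (0.32, limma adjusted p = 0.532). Its gene ends had been called in 5 libraries only, each with a region of up to 9492 bp that reached the neighbouring gene Midn. In the 3 young libraries among them the summed length averaged 11240 bp, so further regions entered the sum. Cbarp was also reached, though not in every one of these libraries. Of the 50 tested members with a start in the promoter table, 49 had a region within 1 kb of it in all 10 libraries.

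**Figure D1:**
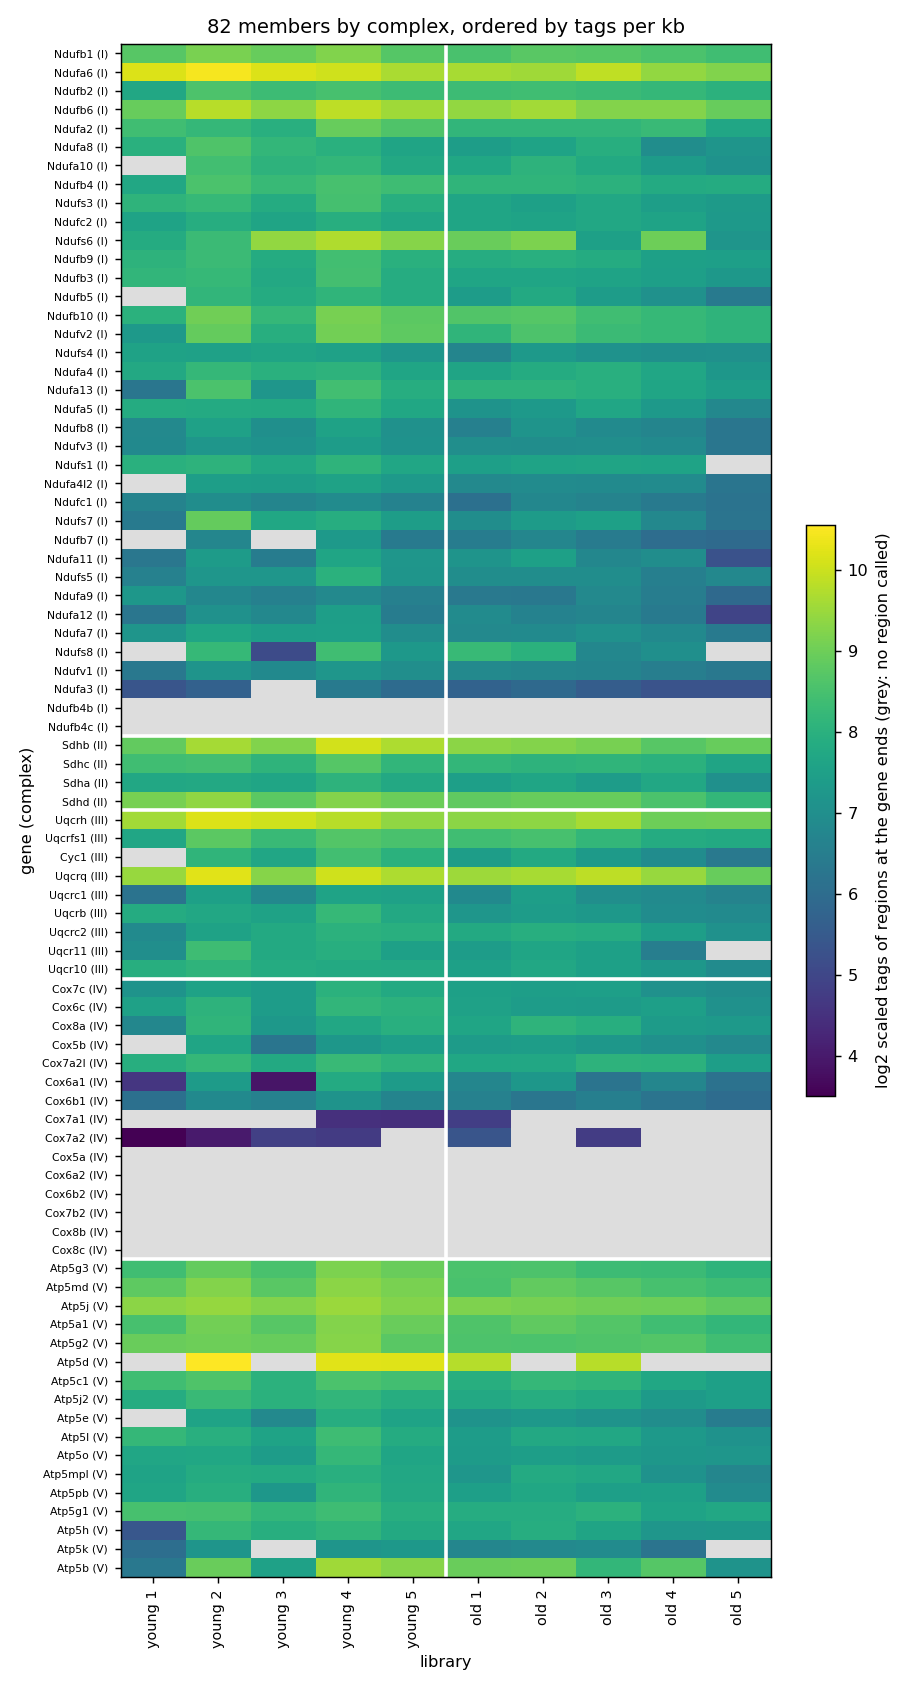
Scaled tags of H3K27ac regions at the ends of 82 of the 83 genes (rows, grouped by complex and ordered by tags per kb) in the 10 libraries (columns), on a log2 colour scale, with grey for no region. Rows that are grey throughout gather in complex IV, and young 1 is grey or dark at several genes that the other libraries called.

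No member passed the test for a difference between the ages. limma called 0 of the 59 tested members at an adjusted p of 0.05, against 5 of the 7450 genes tested (0.0671%). edgeR's quasi-likelihood test and DESeq2 also called 0 members, against 9 (0.121%) and 152 genes (2.04%). At an unadjusted p of 0.05 limma took 3 members (5.08%), against 981 of all genes (13.2%), while edgeR took 2 (13.4% of all genes) and DESeq2 took 3 (14.2%). The median log2 difference was 0.01 over the members and 0.01 over all tested genes, with 30 members above and 29 below 0. Where uncalled libraries were entered at 0, 75 members could be tested and limma called 0 of them. The interquartile range ran from -0.10 to 0.11 for the members and from -0.14 to 0.18 for all genes.

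The intervals of the members give the precision of each difference, gene by gene and without adjustment for the number of genes. They rest on the spread between libraries. For 54 of the 59 members the 95% confidence interval of the difference lay within 2-fold in either direction, and for 45 it lay within 1.5-fold. The median SE was 0.14 on the log2 scale. The 5 wider intervals belonged to Cox6a1, Atp5b, Atp5h, Ndufa13 and Ndufs6. Without centring, the median was -0.36 both for the members and for all genes, and limma called 4 members lower in old libraries, Uqcrb, Ndufs3, Ndufa6 and Ndufb3, against 11.8% of all genes lower.

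**Figure D2:**
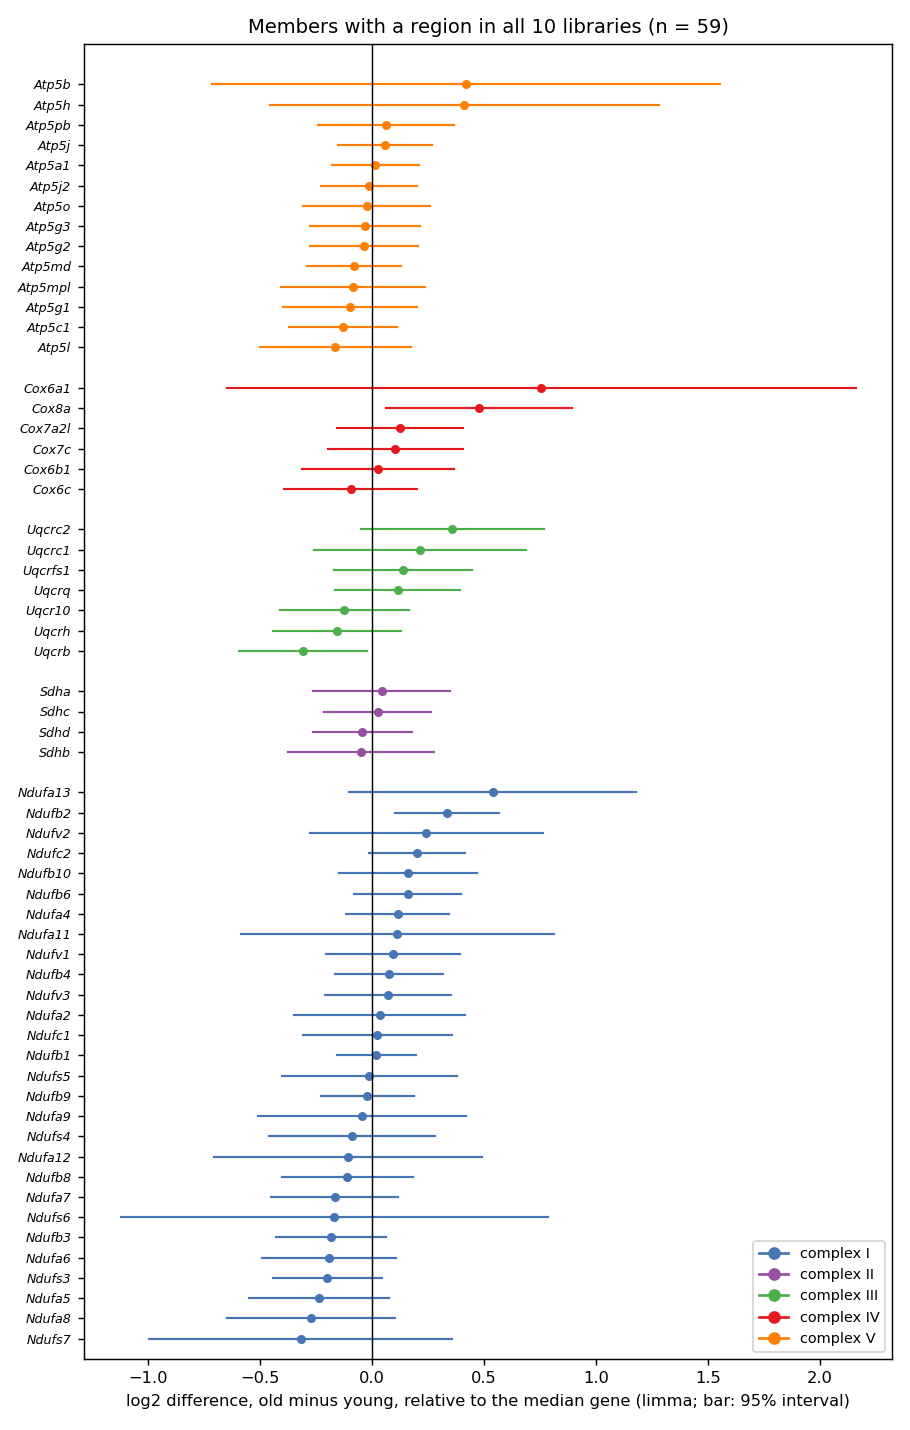
Log2 difference of old minus young, relative to the median gene, for the 59 tested members by complex (points: limma estimates; bars: 95% confidence intervals; n = 5 libraries per age). All intervals but those of Ndufb2, Cox8a and Uqcrb include 0, and the widest is that of Cox6a1.

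Complex I takes electrons from NADH through a flavin and a chain of iron-sulphur clusters. Its 28 tested members had a median log2 difference of 0.00, with 14 above and 14 below 0. The smallest p in the whole set belonged to Ndufb2 (chromosome 6, 39592565 to 39599843), an accessory subunit of the membrane arm. It held 212.3, 389.3, 323.5, 361.7 and 323.0 scaled tags in young 1 to 5 and 323.6, 338.2, 317.5, 295.8 and 263.7 in old 1 to 5. On this scale the ages overlapped, with means of 322 ± 67.3 and 308 ± 29.0. On the centred log2 scale it stood at -0.23, 0.12, 0.25, 0.03 and 0.28 in young and at 0.41, 0.39, 0.35, 0.48 and 0.50 in old libraries. All 5 old libraries lay above all 5 young ones there, the only member of which this held in either direction, against 3.57% of all tested genes (266). The log2 difference was 0.33 ± 0.11 (SE, n = 5 per age, limma adjusted p = 0.243). It was 0.29 from tags per kb and 0.28 without young 1 and 3. Its promoter is shown because it carried the smallest p.
Ndufb2, chr6:39592315-39592614, plus strand: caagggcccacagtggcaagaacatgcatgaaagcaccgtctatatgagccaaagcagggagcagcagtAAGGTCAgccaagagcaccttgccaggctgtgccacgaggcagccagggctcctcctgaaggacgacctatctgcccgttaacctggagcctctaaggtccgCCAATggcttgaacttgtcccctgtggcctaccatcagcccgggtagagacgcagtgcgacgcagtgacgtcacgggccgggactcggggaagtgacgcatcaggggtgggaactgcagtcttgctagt
It held 1 ESRRA match and 1 CCAAT box, and no match to the NRF1, ETS or YY1 motif.

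The core subunits of complex I, which carry the flavin, the clusters or the quinone site, did not pass the test either. Ndufv1 (chromosome 19, 4007499 to 4012755), which binds NADH, held 122 ± 26.7 scaled tags in young libraries and 98.9 ± 13.1 in old ones (log2 difference 0.09, limma adjusted p = 0.797). It was the tested member of complex I with the lowest level per length, 58.0 scaled tags per kb. Ndufs3 held 275.2, 302.4, 232.2, 355.1 and 244.8 in young and 200.7, 181.8, 213.2, 177.1 and 164.4 in old libraries. Its ages did not overlap before centring, and its centred difference was -0.20 (limma adjusted p = 0.451). Ndufv2, which bears another cluster, held 373 ± 162 in young and 311 ± 46.6 in old libraries (0.24, limma adjusted p = 0.683). At its start alone the sign was the other way, with 220 ± 39.9 in young and 146 ± 31.9 in old libraries (-0.22, limma adjusted p = 0.504). Ndufs7, a cluster-bearing subunit beside the quinone site, held 83.8, 480.3, 210.5, 236.9 and 172.7 in young and 124.3, 165.0, 181.7, 110.3 and 74.7 in old libraries. Young 2 stood far above the rest. The difference, the most negative of the 59 tested members, was -0.32 ± 0.31 (SE, n = 5 per age, limma adjusted p = 0.676), -0.08 without young 2 and 0.24 on tags per kb.

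Ndufs1 (chromosome 1, 63143592 to 63176822), the largest core subunit, lacked a region in old 5. It held 253.7, 267.2, 213.2, 275.7 and 203.9 scaled tags in young and 178.1, 194.5, 199.3 and 193.0 in the other 4 old libraries. Ndufs8, another cluster-bearing core subunit, was missed in young 1 and old 5 and ranged from 34.7 to 338.0 in the remaining 8.

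Among the accessory subunits, Ndufa13 held 77.0, 375.5, 148.5, 340.7 and 240.3 scaled tags in young and 267.2, 268.1, 247.1, 203.1 and 173.1 in old libraries. Young 1 and 3 were the lowest. The log2 difference was 0.54 ± 0.29 (SE, n = 5 per age, limma adjusted p = 0.444) and 0.05 without those libraries. Ndufs6, which holds a zinc ion in the mature complex, stood at 230.4, 320.8, 678.4, 842.1 and 616.3 in young and 498.4, 573.3, 184.2, 509.5 and 146.1 in old libraries. The high values went with regions of 4709 to 5641 bp at the end it shares with Mrpl36, and the low ones with regions of 2126 to 2728 bp there. Both kinds occurred at both ages, and the difference was -0.17 (limma adjusted p = 0.897). Ndufa8, another accessory subunit, had the next most negative difference of complex I after Ndufs7, -0.27 (limma adjusted p = 0.505).

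The highest level per length among tested members of complex I was at Ndufb1, with 167 scaled tags per kb, where the value was 499 ± 81.4 in young and 387 ± 36.9 in old libraries (log2 difference 0.02, limma adjusted p = 0.941). Ndufa4, a subunit now placed in complex IV by many authors, held 247 ± 37.8 and 206 ± 37.3 (0.11, limma adjusted p = 0.659). Its hypoxia-induced paralogue Ndufa4l2 was missed in young 1 and held 177.4, 173.7, 188.4 and 156.7 in the other young and 113.6, 120.3, 117.6, 120.9 and 75.4 in the old libraries. Where called, young libraries were above old ones in scaled tags, but divided by the median gene of its library young 2 was below old 4, so the ages overlapped on that scale. The region also reaches Shmt2, the mitochondrial serine hydroxymethyltransferase gene, and the 2 cannot be told apart there. Of the other members, Ndufb5, Ndufa10 and Ndufa3 had regions in 9 libraries and Ndufb7 in 8.

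Complex II oxidises succinate and is also an enzyme of the tricarboxylic acid cycle. The log2 differences of its 4 members ran from -0.05 to 0.04. Sdha (chromosome 13, 74322255 to 74350240), the flavoprotein, held 212.9, 217.7, 200.9, 268.5 and 216.5 scaled tags in young and 178.1, 201.6, 169.1, 214.2 and 131.0 in old libraries. The ages overlapped, with a log2 difference of 0.04 ± 0.14 (SE, n = 5 per age, limma adjusted p = 0.921). Sdhb, the iron-sulphur subunit, had the highest level of the complex per length at 163 scaled tags per kb and held 751 ± 230 in young and 543 ± 89.8 in old libraries (-0.05, limma adjusted p = 0.910). The membrane anchors Sdhc and Sdhd differed by 0.02 and -0.04. For all 4 the 95% interval lay within 1.5-fold.

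The promoter of Sdha is shown for its NRF1 matches.
Sdha, chr13:74350191-74350490, minus strand: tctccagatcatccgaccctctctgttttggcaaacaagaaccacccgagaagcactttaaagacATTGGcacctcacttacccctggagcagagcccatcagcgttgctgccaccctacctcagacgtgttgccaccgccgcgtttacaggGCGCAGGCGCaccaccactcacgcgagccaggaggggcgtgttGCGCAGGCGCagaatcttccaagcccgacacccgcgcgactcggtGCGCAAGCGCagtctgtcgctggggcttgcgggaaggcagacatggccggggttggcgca
It held 3 of them, besides a CCAAT box. The promoter table matched 67 of the 83 members with 72 windows. An NRF1 match was in 25% of these windows, against 10.98% of the windows of all tested genes and 6.38% of all windows. The YY1 motif was in 13.9%, against 5.04% and 3.05%, and the ESRRA motif in 11.1%, against 3.43% and 4.08%. The ETS motif was in 23.6%, against 19.3% and 11.6%. The SP1 motif was less frequent in the members' windows (38.9%) than in those of all tested genes (62.0%) or all genes (46.2%), and the CCAAT box stood at 40.3%, 38.4% and 38.2%. TATAAA was in 12.5% of the members' windows, against 7.43% and 12.6%. A match is a description of the letters, and no binding was measured.

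Complex III carries electrons from ubiquinol to cytochrome c. Uqcrb (chromosome 13, 66900576 to 66905350), which lies at the quinone site, held 231.0, 214.2, 190.7, 301.3 and 216.2 scaled tags in young and 149.5, 169.1, 155.3, 123.0 and 117.5 in old libraries. Every old library lay below every young one on this scale. On the centred scale the groups overlapped, at -0.11, -0.74, -0.51, -0.23 and -0.29 in young and -0.70, -0.60, -0.68, -0.78 and -0.66 in old libraries. The log2 difference was -0.31 ± 0.13 (SE, n = 5 per age, limma adjusted p = 0.350) and -0.03 on tags per kb. Uncentred, it was -0.68 with a limma adjusted p of 0.0392. Its region also reaches Mterf3 and Gm10767.

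The core protein Uqcrc2 held 118.3, 188.9, 221.3, 263.2 and 246.4 scaled tags in young and 222.6, 241.7, 234.5, 177.6 and 135.0 in old libraries. The ages overlapped, with a log2 difference of 0.36 relative to the median gene (limma adjusted p = 0.422) and of -0.02 without centring. Its partner Uqcrc1 differed by 0.21 and Uqcrfs1, the Rieske iron-sulphur protein, by 0.14 (limma adjusted p = 0.691 and 0.692). Uqcrh, the hinge protein, had the highest level per length of all tested members, 199 scaled tags per kb, with 916 ± 207 in young and 628 ± 115 in old libraries (-0.16, limma adjusted p = 0.625). Uqcr10, a small subunit, had the lowest of the tested members of the complex, 69.7 scaled tags per kb. Cyc1, cytochrome c1, was missed in young 1 and held 203.6 to 343.3 in the other young and 82.6 to 222.9 in the old libraries. Uqcr11 was missed in old 5.

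In complex IV, the cytochrome c oxidase, Cox8a (chromosome 19, 7215158 to 7217616) held 109.3, 276.4, 154.6, 214.0 and 247.4 scaled tags in young and 202.0, 273.2, 241.5, 167.0 and 158.8 in old libraries. The lowest were young 1 and 3, and the ages overlapped. The log2 difference was 0.48 ± 0.19 (SE, n = 5 per age, limma adjusted p = 0.310). It was 0.23 from tags per kb and 0.24 without young 1 and 3. Cox6a1 (chromosome 5, 115345652 to 115348958) held 24.3, 165.9, 15.0, 226.4 and 167.3 in young and 106.3, 151.3, 74.8, 106.6 and 71.5 in old libraries. The regions of young 1 and 3 there were 625 and 500 bp long, against 758 to 2633 bp elsewhere. Its log2 difference was the largest of the set at 0.76 ± 0.64 (SE, n = 5 per age, limma adjusted p = 0.634), and it was -0.40 without young 1 and 3. Among the tested members of the complex, Cox7c had the highest level per length, 128 scaled tags per kb, and Cox6b1 the lowest, 59.2. They differed by 0.10 and 0.03, and Cox6c by -0.10. Cox5b was missed in young 1 and held 76.3 to 201.0 in the other young and 114.4 to 172.6 in the old libraries.

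Complex V consists of a catalytic head of alpha and beta subunits, a rotor with a ring of c subunits, and stalks. Atp5a1, the alpha subunit, held 362.9, 536.8, 421.6, 608.4 and 494.1 scaled tags in young and 393.4, 456.0, 406.2, 336.7 and 286.7 in old libraries. The ages overlapped, with a log2 difference of 0.01 ± 0.09 (SE, n = 5 per age, limma adjusted p = 0.960). Atp5b (chromosome 10, 128083307 to 128090388), the beta subunit, held 80.4, 494.7, 188.0, 753.5 and 626.9 in young and 491.8, 508.7, 286.7, 413.0 and 139.0 in old libraries. A region at the far end, of 2225 to 4963 bp, entered the sum in 7 libraries and was uncalled in young 1, young 3 and old 5. At the start alone the values were 80.4, 232.7, 188.0, 282.2 and 261.5 in young and 181.4, 186.3, 144.0, 146.9 and 139.0 in old libraries. The log2 difference was 0.42 ± 0.52 (SE, n = 5 per age, limma adjusted p = 0.753) over both ends and 0.10 ± 0.25 at the start, and it was -0.38 over both ends without young 1 and 3.

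The 3 genes of the c subunit, Atp5g1, Atp5g2 and Atp5g3, encode the same mature protein with different import sequences. Their levels per length were 85.3, 140 and 184 scaled tags per kb, and their log2 differences -0.10, -0.04 and -0.03 (limma adjusted p = 0.785, 0.918 and 0.931). Atp5h, a subunit of the peripheral stalk, stood at 42.5 in young 1, against 222.9 to 297.2 in the other young and 148.4 to 240.7 in the old libraries. Its difference was 0.41 (limma adjusted p = 0.675), and -0.04 without young 1. The lowest level per length among tested members of the complex was that of Atp5b, 69.3 scaled tags per kb. The gamma subunit Atp5c1 differed by -0.13 and Atp5l by -0.16, the most negative of the complex. Atp5j, also of the peripheral stalk, shares its region with Gabpa, the ETS factor named above, and both held 659 ± 51.4 scaled tags in young libraries and 529 ± 49.3 in old ones (0.06, limma adjusted p = 0.824). Atp5e was missed in young 1, and Atp5k in young 3 and old 5.

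Shared regions were common in the set. Of the 59 tested members, 28 (47.5%) had a region that reached an end of another protein-coding gene in every library, against 32.5% of all tested genes. Among the partners were Mrpl36 at Ndufs6, Rps28 at Ndufa7, Rps2 at Ndufb10 and Timm8b and Nkapd1 at Sdhd. A shared region cannot be divided between its genes.

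Summed by complex over distinct regions, the mean scaled tags were lower in old than in young libraries in each complex, as they were at all gene ends. Complex I held 6861.6, 11384.7, 8699.8, 12689.9 and 8921.5 in young 1 to 5 and 7941.3, 8589.1, 7821.3, 7085.4 and 5277.3 in old 1 to 5. Old 5 was lowest, and the other 4 old libraries fell inside the range of the young. The means were 1862 ± 350 and 1400 ± 206 for complex II and 3411 ± 720 and 2574 ± 551 for complex III in young and old libraries. They were 1269 ± 383 and 1110 ± 165 for complex IV, and 6166 ± 1706 and 4488 ± 932 for complex V. The ratio of the old to the young mean was 0.756 for complex I, 0.752 for complex II, 0.755 for complex III, 0.875 for complex IV and 0.728 for complex V. It was 0.755 for the whole set and 0.772 for all protein-coding gene ends. The ages overlapped in every complex.

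The called length moved in the same direction. Complex I regions covered 95126 ± 18927 bp in young and 81745 ± 10907 bp in old libraries, a ratio of 0.859, and the ratios were 0.915, 0.912, 0.920 and 0.865 for complexes II to V. Per kb of called length, complex I held 102 ± 9.56 scaled tags in young libraries and 89.6 ± 7.72 in old ones, complex II 136 ± 22.3 and 112 ± 6.51, complex III 127 ± 23.1 and 104 ± 11.1, complex IV 92.9 ± 14.6 and 88.9 ± 5.25, and complex V 124 ± 17.4 and 104 ± 7.80. Young 5 was the lowest young library per kb in complexes I, III and V (86.7, 92.0 and 103.8), and young 1 in complexes II and IV. The authors' fragment length was 620 bp for young 5, against 414 to 444 bp for the other libraries. Its part in lengths and values per kb was not tested. As a share of all gene-end tags of a library, the set took 0.881 ± 0.085% in young and 0.862 ± 0.044% in old libraries. The share of complex IV was the one that was higher in old, at 0.0497 ± 0.0106% and 0.0568 ± 0.00164%, and its young values ran from 0.0371% in young 1 to 0.0643% in young 5. In scaled tags, 7 tested members (Ndufa5, Ndufb3, Ndufs3, Uqcr10, Uqcrb, Atp5g2 and Atp5j) were lower in every old than in every young library, against 12% of all tested genes, and 0 were higher in every old library, against 0.0403%.

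**Figure D3:**
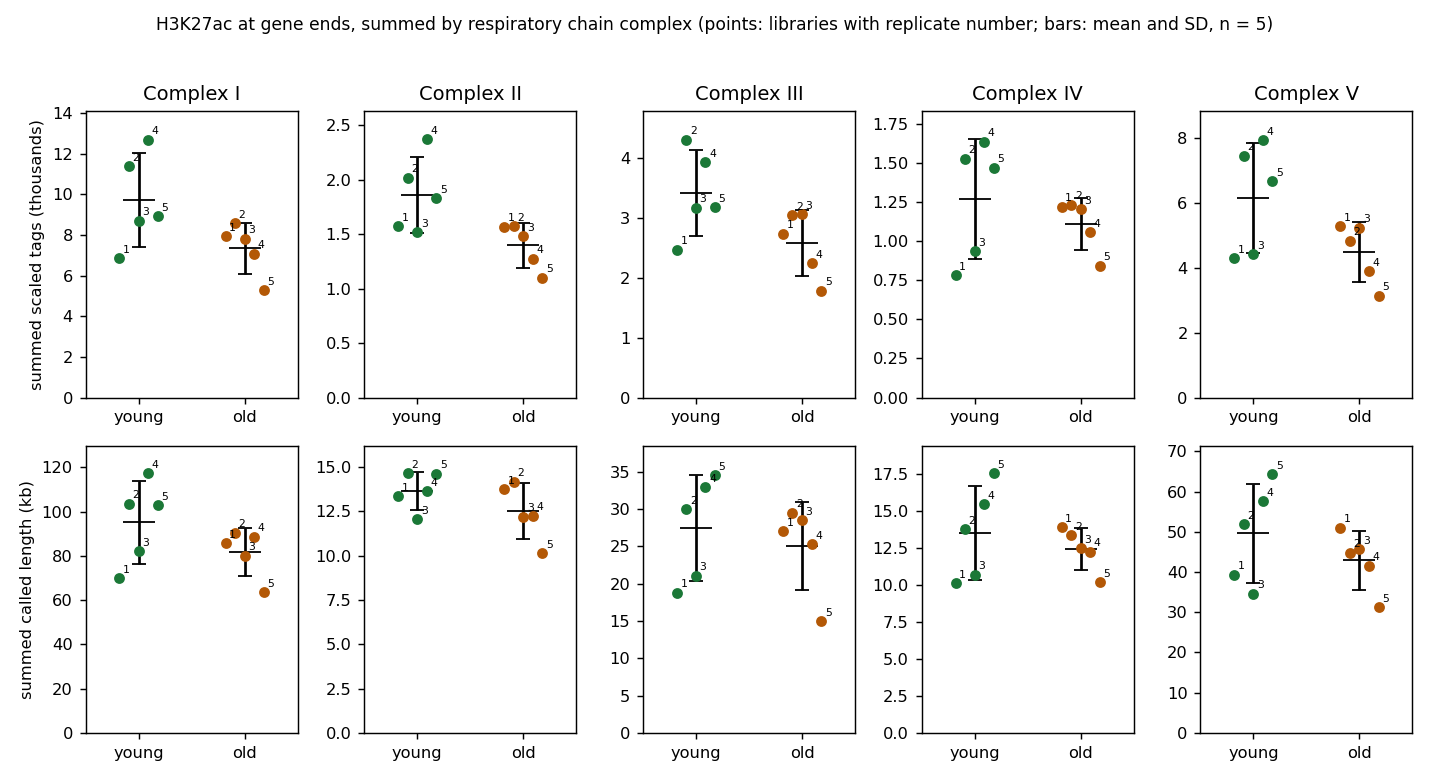
Summed scaled tags (top, in units of 1000) and summed called length (bottom, kb) of the regions at the members of each complex, per library (points with replicate number) with mean and SD (n = 5 per age). Young 1 and young 3 lie low among the young libraries and old 5 lies lowest in every panel among the old, and the ages overlap throughout.

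Young 1, young 3 and old 5 called fewer regions than the other libraries, at these genes and at all genes. The median fold over input of the members' regions was 7.5, 7.38 and 7.78 in them and 10.5 to 19.4 in the other 7. They called 65, 70 and 67 of the 83 members, against 72 to 75, and 8803, 8783 and 9439 of all genes, against 10198 to 10923. Young 1 was the only library with no region at Ndufb5, Ndufa10, Cox5b, Cyc1, Atp5e and Ndufa4l2, and 4 of 59 members (6.78%) were far below the median of their own age there (beyond 3-fold), beside 5.56% of all tested genes. The same held for 1 member in young 3 (1.69%, beside 3.62% of all genes) and for 3 in old 5 (5.08%, beside 1.84%). Over all tested genes, the mean correlation with libraries of the same age was 0.792 for young 1 and 0.847 for young 3, against 0.873 to 0.924 in the others. These correlations are across genes and only describe the libraries. With young 1 and 3 both left out, 0 of 67 members were called and the median of the members was -0.01.

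**Figure D4:**
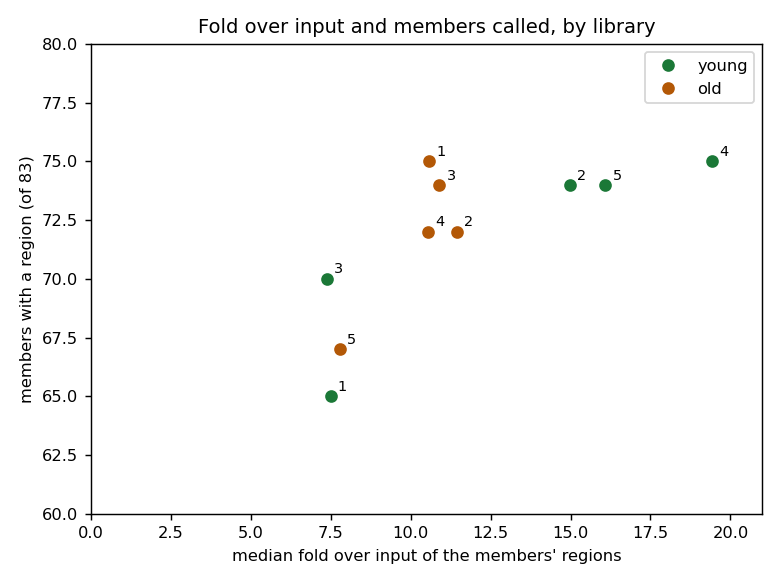
Number of the 83 members with a region in each library against the median fold over input of the members' regions in it (points with replicate number, coloured by age). Young 1, young 3 and old 5 lie at the left and below the other libraries.

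The wider pathway gave 0 genes called by limma in any list. Among 40 tested assembly factors the median log2 difference was 0.01, with 4 under an unadjusted p of 0.05 (10%, against 13.2% of all genes). Coa6, a copper-handling assembly factor of complex IV, held 214.6, 361.1, 257.4, 420.7 and 377.6 scaled tags in young and 153.5, 195.5, 175.4, 99.7 and 89.0 in old libraries, with no overlap. Its difference was -0.83 ± 0.18 (SE, n = 5 per age, limma adjusted p = 0.110) and -0.35 on tags per kb. The other 3 were Coa3 (-0.67, and -0.54 from tags per kb), Ndufaf6 (-0.61, and 0.02 from tags per kb) and Cox19 (0.65, and -0.05 from tags per kb). They are named for their unadjusted p, as is Coa6, after their values were seen.

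Of 14 tested regulators of mitochondrial biogenesis, 5 were under an unadjusted p of 0.05 (35.7%, against 13.2% of all genes), and the median was 0.03. Ppargc1b and Pprc1, relatives of PGC-1alpha, differed by -0.31 and -0.70, Tfb2m by -0.21, Tfb1m by 0.49 and Perm1 by 0.87, with limma adjusted p from 0.229 to 0.348. From tags per kb, in the same order, the differences were -0.29, -0.46, -0.24, 0.11 and 0.23. These were also named after their values were seen. Ppargc1a, the gene of PGC-1alpha, had no region within 1 kb of its ends in any library. A region at a start farther inside the gene, as at Cox5a, would not be counted there. Absence of a call does not show absence of signal. Nrf1 differed by -0.13, Gabpa by 0.06, Esrra by -0.17 and Tfam, the packaging protein of mitochondrial DNA, by 0.30 (limma adjusted p = 0.634, 0.824, 0.494 and 0.546). Cox4i1, the main subunit IV, held 368 ± 121 in young and 258 ± 68.7 in old libraries (-0.10, limma adjusted p = 0.855). The median was 0.04 over 14 genes of the tricarboxylic acid cycle list, Pdha1 and Pdhb included. It was -0.09 over 53 mitochondrial ribosomal proteins and -0.09 over 74 genes taken by the symbol pattern of cytosolic ribosomal proteins.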

How the data were processed

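H3K27ac was measured in 5 young and 5 old hepatocyte libraries. Per the file headers, HOMER (histone mode) was run by the authors on each library against its input and joined peaks of 500 bp into regions at least 4-fold over input, with a Poisson p of 1e-04. Per the submitters' processing notes, mm10 was the build. The sources used here do not give the aligner or HOMER's version. The signal of a region was its tag count scaled by the authors to 10000000 tags. The unscaled tags, deposited in steps of 0.5, were treated like estimated counts and rounded for edgeR and DESeq2. The authors' ratio of tags to input (fold) and each region's length in bp, of another unit, were also used as deposited. The HOMER score deposited by the authors was not used.

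Genes came from RefSeq (GRCm38.p6). Log2 of summed tags plus 1 was centred on the median gene of each library and tested with limma 3.58.1 (mean-dependent prior, Benjamini-Hochberg at 0.05) over the 7450 genes with a region in all 10 libraries. Every limma, edgeR and DESeq2 p is two-sided. Log2 differences understate changes of weak genes. Complex sums have no test. Alternatives were edgeR 4.0.16, DESeq2 1.42.0, other scalings, region rules, pseudocounts, filters and left-out libraries. R 4.3.3, Python 3.11.15, numpy 2.4.6, pandas 2.3.3, scipy 1.17.1 and matplotlib 3.10.9 were used. Tested on simulated data of 7450 genes, of which 200 were changed by a log2 of 1, the limma step recovered 76% with 2 false calls.

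The members and lists were chosen with earlier results of these data known. Genes were named where they passed the threshold, held the 2 largest or most negative differences or the highest or lowest level per kb of a complex, lacked a region in some library, or were core subunits, tissue isoforms or listed regulators. Other genes are named where a sentence gives the reason. Labels do not say that a replicate number joins a young and an old library. The values of 1 member, which stays in the counts and sums, are not reported here.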

Additional observations from a re-analysis of the deposited data

Results flagged for a closer look

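Among 90 groups of 5 libraries examined for 1 library standing apart from the rest, 3 had one, and chance alone gives about 1 in 20. Sdha held 268.5 scaled tags in young 4, with the next highest young library at 217.7. Ndufa4l2 held 75.4 in old 5, with the next lowest old library at 113.6. The summed called length of complex III was 14953 bp in old 5, with the next lowest old library at 25276 bp.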

How the results depend on the processing

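The count of 0 members called held under the alternatives that brought the libraries to a common level, and 4 were called without centring. All-gene calls were 5 as reported, 881 without centring, 0 on tags per kb, 9 with edgeR, 152 with DESeq2, 1 with IP efficiency as a covariate, 15 where a region had to cover a gene end, 9 within 2 kb, 9 with the strongest region, 13 at starts only, 134 on consensus regions, 40 without young 1 and 3, and 3 to 17 when each library was left out in turn. The lowest of these came without young 2, old 4 or old 5 and the highest without young 1. The members' median was -0.36 without centring and -0.0698 on consensus regions. As shares of all gene-end tags, the log2 ratios of old to young by complex were -0.0266, -0.0418, -0.0419, 0.194 and -0.0818, where those of the scaled tags were -0.40, -0.41, -0.41, -0.19 and -0.46. The called length of complex I changed by -0.54 with regions of at least 8-fold over input and by -0.22 as reported. The cause was not tested. Deviations of libraries with the same replicate number correlated at -0.05 to 0.14, and not every library correlated best with its own number. Such correlations cannot settle whether the numbers pair the libraries. With the replicate number as a block, 0 members and 1 gene in all were called. Of 776 values of 30 named members under the alternatives, 746 stayed within their replicate spread or kept their side of the threshold. A value could be had only where a region passed the 4-fold calling limit, and depth was not tested as a factor.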
